A study of Mus musculus with 7 samples.

Results

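The tumour necrosis factor (TNF) superfamily genes described here are 10 of the 35641 genes in a table of normalized RNA-seq read counts, picked by gene symbol: the ligand genes Tnf, Ltb, Tnfsf14, Tnfsf13b, Tnfsf10 and Tnfsf12 and the receptor genes Tnfrsf1a, Tnfrsf1b, Tnfrsf11a and Tnfrsf21. RNA came from cells called neutrophils in the labels and sorted from lungs of female C57BL6 mice, 4 from a group named HF and 3 from a group named LF. The labels do not spell out these names and give no age, diet or treatment, and the study's title refers to obesity. Sorting, per the labels, kept cells that were CD45+, CD11b+ and Ly6G+ with low Ly6C, TRIzol LS served to extract RNA, and a SMART-Seq kit to build libraries; the kit amplifies full-length complementary DNA from little RNA. Reads assigned to genes came to 13943173 to 16599658 per HF library and 16974428 to 18983351 per LF-labelled library.

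The labelled cell type was checked against its markers before the comparison. Ly6g, the gene of the Ly6G sort protein, averaged 3264 ± 1715 normalized counts in HF (n = 4, SD) and 2.99 ± 4.54 in the LF columns (n = 3, SD). All 12 neutrophil markers were higher in HF, with summed levels of 421820 to 569424 per HF library and 8129 to 8702 per LF-labelled library. All 10 monocyte markers were lower in HF, with sums of 24082 to 30121 in HF and 155871 to 167089 in the LF columns. The 8 genes listed for dendritic cells and antigen presentation included 7 that were lower and 1 that was higher, with sums of 15441 to 33317 in HF and 73585 to 89932 in the LF columns. Platelet markers summed to 708 to 3211 in HF and 149 to 336 in the LF columns, and 4 of 5 were higher in HF. Alveolar macrophage markers summed to 8399 to 32141 in HF and 20023 to 22258 in the LF columns. Chil3 alone made up 30151 of the 32141 in HF replicate 1. Of 6 tested markers, 2 were higher (Siglecf and Ear1) and 2 lower (Pparg and Mrc1). Siglecf averaged 1301 in HF and 52 in the LF columns, and Pparg 206 and 814. Marco, not tested, was at 0 in all HF libraries and at 21, 0 and 0 in LF6, LF7 and LF8. NK cell markers summed to 240 to 1119 in HF and 1127 to 1838 in the LF columns, and 0 of 6 passed. The part of these other cells in the results was not tested. The LF columns therefore went against the Ly6G+ Ly6C-low sort, and they are called the LF-labelled libraries throughout. Every difference below lies between groups that differ this much in neutrophil and monocyte markers. The sums for dendritic cells and antigen presentation, for platelets and for NK cells did not overlap between the groups either. Cell type and the HF and LF condition cannot be told apart in any difference below. In sorted bulk RNA, fewer cells of a type and less RNA per cell cannot be told apart either.

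TNF superfamily ligands are mostly made as membrane proteins that act as trimers on a neighbouring cell or are cut off and act at a distance. Their receptors recruit TRAF adaptors, which lead to NF-kB, or, in receptors with a death domain, adaptors that can activate caspase 8. TNF itself primes neutrophils for adhesion and oxidant release, and monocytes and macrophages are a main source of it. Neutrophils are also known to release BAFF, the product of Tnfsf13b, and TRAIL, the product of Tnfsf10.

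The 10 members split evenly. They were chosen with earlier results of these data known, so the number called among them is no measure of the family. Of the 10 members, 4 ligand genes (Tnf, Ltb, Tnfsf14 and Tnfsf13b) and 1 receptor gene (Tnfrsf1a) were higher in HF, and 2 ligand genes (Tnfsf10 and Tnfsf12) and 3 receptor genes (Tnfrsf1b, Tnfrsf11a and Tnfrsf21) were lower. All 10 passed the filter (mean over all libraries of 10 or more), and all 10 passed limma's test on log2(normalized count + 1) at an adjusted p of 0.05, with p-values adjusted over 14936 genes. Calls were common in this comparison: 55.0% of all tested genes passed, 26.2% as higher and 28.7% as lower in HF. Outside the members, 0 of 7 tested family ligands were higher and 1 was lower. Of 16 tested family receptors outside them, 6 were higher and 4 lower. The groups did not overlap in any of the 10. That was also so in 62.2% of tested genes, 28.4% with HF higher and 33.7% with HF lower. The median log2 difference of the members was 0.26, and that of all tested genes was -0.16. The directions of all 10 held with equal library totals, with quantile normalization and with TMM. Equal totals shifted the median of all genes by -0.54, so small differences depend on the scaling.

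**Figure D1:**
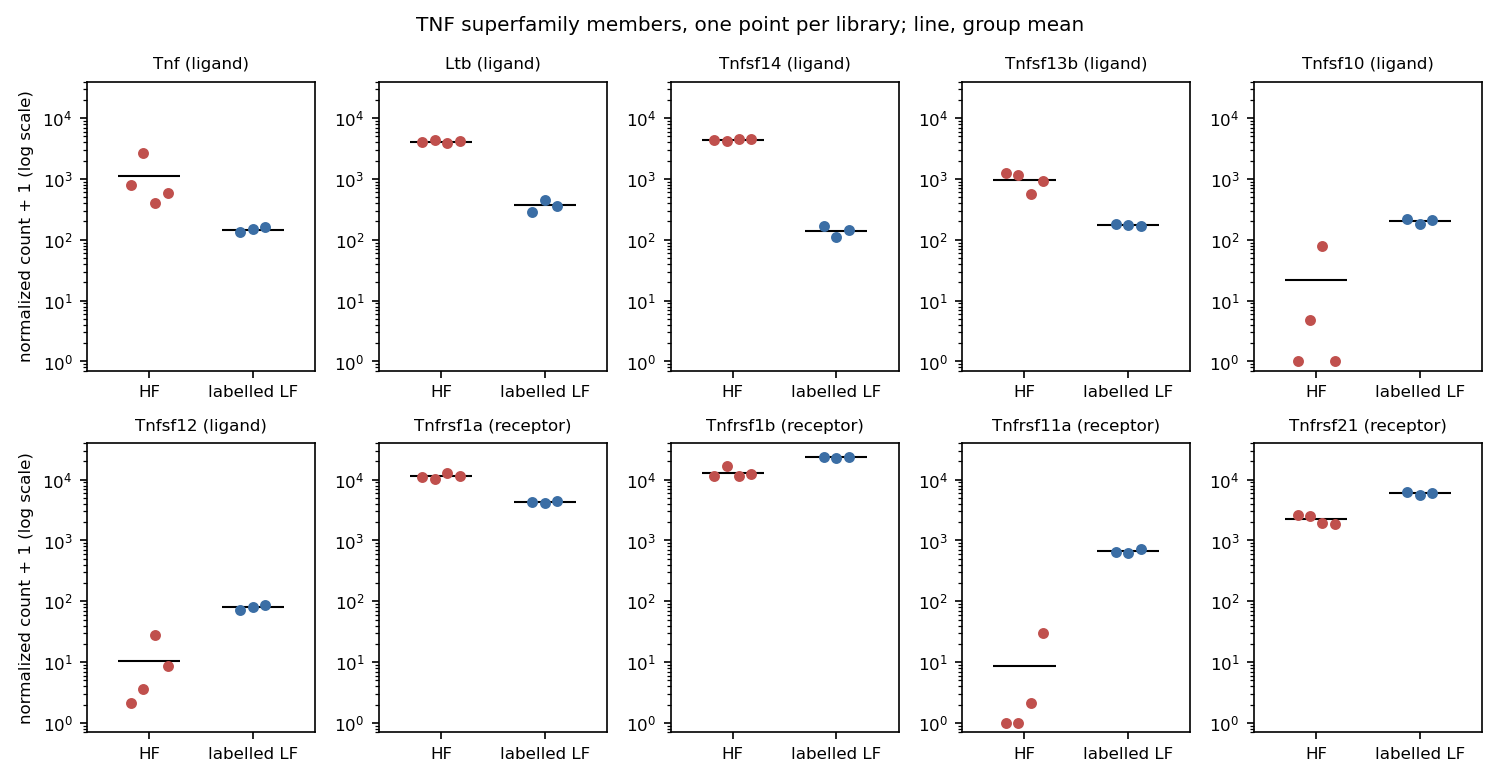
Normalized count plus 1 (log scale) of each of the 10 genes, with 1 point per library, HF on the left and the LF-labelled libraries on the right, and a line at each group mean. Tnf, Ltb, Tnfsf14, Tnfsf13b and Tnfrsf1a lie higher in all HF libraries, and Tnfsf10, Tnfsf12 and Tnfrsf11a are near 0 and uneven among the HF libraries.

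The 4 ligand genes that were higher in HF are shown first by the bases upstream of their starts, so that their windows can be read side by side. Sequences are RefSeq's for GRCm38.p6, 5′ to 3′ on the gene's strand, from 250 bases before the annotated start, without the bases in annotated exons. For Ltb the bases left out are those next to the start, so its printed window ends short of the start. Those bases were not searched. The table covers 9 of the 10 members, all but Tnfsf12. Tnf lies at chr17:35202008-35202257 on the minus strand, Ltb at chr17:35194257-35194438 on the plus strand, Tnfsf14 at chr17:57194182-57194431 on the minus strand and Tnfsf13b at chr8:10006217-10006466 on the plus strand. Capitals mark matches, on either strand, to the core promoter motif TATAAA, to the NF-kB motif, and to GAGGAA, a core that ETS factors such as PU.1 bind.
Tnf: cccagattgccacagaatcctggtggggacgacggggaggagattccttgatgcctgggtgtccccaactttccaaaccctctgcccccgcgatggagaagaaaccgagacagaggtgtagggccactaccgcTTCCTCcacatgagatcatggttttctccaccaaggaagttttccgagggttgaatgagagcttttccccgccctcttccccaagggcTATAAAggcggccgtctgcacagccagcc
Ltb: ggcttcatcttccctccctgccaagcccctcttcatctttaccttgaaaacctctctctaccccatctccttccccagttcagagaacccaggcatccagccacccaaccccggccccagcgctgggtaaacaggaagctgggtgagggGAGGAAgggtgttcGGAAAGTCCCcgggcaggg
Tnfsf14: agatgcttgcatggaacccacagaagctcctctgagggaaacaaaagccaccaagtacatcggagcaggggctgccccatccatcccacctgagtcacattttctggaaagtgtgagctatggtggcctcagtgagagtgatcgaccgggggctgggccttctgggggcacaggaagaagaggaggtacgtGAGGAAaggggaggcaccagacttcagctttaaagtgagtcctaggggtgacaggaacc
Tnfsf13b: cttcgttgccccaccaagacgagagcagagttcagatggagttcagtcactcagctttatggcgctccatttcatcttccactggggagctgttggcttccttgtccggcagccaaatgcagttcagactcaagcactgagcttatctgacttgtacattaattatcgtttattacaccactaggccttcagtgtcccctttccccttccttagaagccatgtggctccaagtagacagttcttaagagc

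GAGGAA or its reverse complement stood 117 bases upstream of the start of Tnf, 101 upstream of Ltb and 59 upstream of Tnfsf14, and was not found in the window of Tnfsf13b. It was present in 23.3% of all 32851 promoter windows of 250 bases and in 17.4% of windows of 182 bases, the length shown for Ltb. Of the members that were lower in HF, Tnfrsf1b and Tnfrsf21 also held it, and Tnfsf10 and Tnfrsf11a did not. The NF-kB motif was found in the Ltb window, 87 bases upstream, and in 2.84% of all windows of 182 bases. TATAAA was found 29 bases upstream of Tnf and in 12.4% of windows of 250 bases. The motif TTGCNNAA (C/EBP) and, by name, the interferon-stimulated element were also searched and were in none of the windows printed. They were present in 9.56% and 2.98% of all windows of 250 bases. The interferon motif stood 10 bases upstream of Tnfrsf1b, and all bases before the start of Tnfrsf1a lie in annotated exons and were not searched. The matches do not overlap each other, and they describe letters only.

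Tnfsf14 encodes LIGHT, a ligand of the lymphotoxin beta receptor and of HVEM, and it showed the largest increase among the members. It stood at 4406, 4221, 4516 and 4566 normalized counts in HF replicates 1 to 4, against 165, 110 and 144 in the LF-labelled libraries. The HF libraries lay within a narrow band far above the other group. The mean was 4427 ± 153 in HF (n = 4, SD) and 140 ± 27.5 in the LF-labelled libraries (n = 3, SD), a 31.7-fold ratio and a log2 difference of 4.99 ± 0.15 (SE, limma adjusted p = 1.26e-07).

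Ltb encodes lymphotoxin beta, which anchors the lymphotoxin heterotrimer on the cell surface and is well known from lymphocytes. It stood at 4005, 4353, 3909 and 4158 normalized counts in HF replicates 1 to 4 and at 288, 455 and 359 in the LF-labelled libraries. The groups were wide apart, and the log2 difference was 3.50 ± 0.15 (SE, limma adjusted p = 7.81e-07). Lta, the lymphotoxin alpha gene, picked after its values were seen, was low in both groups. It stood at 31.1, 0, 0 and 28.2 normalized counts in HF replicates 1 to 4 and at 15.7, 12 and 2.74 in the LF-labelled libraries. It did not pass (log2 difference -0.75 ± 1.55, SE, limma adjusted p = 0.697). Summed B cell markers, 6 of 6 with reads in both groups, were 5161 to 10779 in HF and 6829 to 7603 in the LF-labelled libraries, so these sums overlapped. Summed T cell markers, 8 of 8 with reads in both groups, were 1099 to 2522 in HF and 1176 to 2667 in the LF-labelled libraries, overlapping too. None of the 5 tested B cell markers and none of the 8 T cell markers passed limma's test.

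Tnf, the founding ligand of the family, was higher in HF and was the most uneven of the abundant members. It stood at 792, 2667, 407 and 598 normalized counts in HF replicates 1 to 4, against 131, 149 and 160 in the LF-labelled libraries. HF replicate 2 was far above the other HF libraries, and even the lowest HF library exceeded every LF-labelled library. The mean was 1116 ± 1046 in HF (n = 4, SD) and 147 ± 14.4 in the LF-labelled libraries (n = 3, SD), a 7.61-fold ratio that was 4.08-fold without HF replicate 2. The log2 difference was 2.53 ± 0.57 (SE, limma adjusted p = 0.00613), and 1.97 without HF replicate 2 (adjusted p = 0.00106 by limma, and 1.73e-06 to 0.0242 across the alternatives).

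A pair of other genes of the pathway was also highest in that library. Tnfaip3, which encodes A20, an NF-kB-induced inhibitor of TNF signalling, had 4340 normalized counts in that library, against 1772 to 2101 in the other HF libraries. Traf1, another NF-kB-induced gene, had 792 there, against 144 to 235. These 2 genes were picked after their values were seen. HF replicate 2 was the highest HF library in 25.6% of all tested genes and in 29.9% of the 77 tested genes of the pathway lists, and it had the most genes with a read (26409, against 16743 to 20308 in the other HF libraries).

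Tnfsf13b encodes BAFF, the B cell survival factor. Its normalized counts were 1252, 1176, 574 and 913 in HF replicates 1 to 4 and 178, 173 and 166 in the LF-labelled libraries. HF replicate 3 was the lowest in HF, and it still stood above all of the other group. The log2 difference was 2.44 ± 0.27 (SE, limma adjusted p = 0.000139), a 5.69-fold ratio of means.

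Tnfsf10 encodes TRAIL, a death ligand that interferons induce. Its normalized counts were 0, 3.86, 79.6 and 0 in HF replicates 1 to 4 and 217, 182 and 208 in the LF-labelled libraries. No HF library reached the lowest LF-labelled library, but 71 of the 74 HF reads came from replicate 3, and a count of 0 allows up to 3.46 and 3.85 normalized counts in replicates 1 and 4 (3 reads, counting error only). The log2 difference of -5.51 ± 1.47 (SE, limma adjusted p = 0.0135) was -6.90 without HF replicate 3 and -4.79 without replicate 1 or without replicate 4. On recovered whole reads the log2 difference was smaller and the call was lost, at -3.25 with edgeR's quasi-likelihood test (adjusted p = 0.105), -3.28 with edgeR and TMM factors (adjusted p = 0.102) and -3.26 with DESeq2 (adjusted p = 0.0667; all alternatives spanned 0.000298 to 0.105). The mean was 20.9 ± 39.2 normalized counts in HF (n = 4, SD) and 202 ± 18.1 in the LF-labelled libraries (n = 3, SD), 9.68-fold higher in the LF-labelled libraries, and the adjusted p in the authors' deposited table was 0.1965. In HF replicate 3 the monocyte markers summed to 30121, against 24082 to 28881 in the other HF libraries, and the platelet markers to 3211, against 708 to 784. The NK cell markers summed to 1119 there, against 240 to 1059. Of these, Ncr1 (165, against 0 to 43.8), Klrb1c (173, against 0 to 61.7) and Gzma (571, against 0 to 202) were highest in that library, and Nkg7, Klrd1 and Prf1 were not. Their part in the Tnfsf10 reads was not tested.

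Tnfsf12 encodes TWEAK, the ligand of the receptor Fn14. It stood at 1.15, 2.57, 26.9 and 7.70 normalized counts in HF replicates 1 to 4 and at 71.2, 79.6 and 85.6 in the LF-labelled libraries. All HF libraries were lower, with a log2 difference of -3.60 ± 0.89 (SE, limma adjusted p = 0.00963) that was -4.29 without HF replicate 3 and -2.83 with a pseudocount of 5. In the GENCODE M21 annotation its exons overlap the read-through gene Tnfsfm13, which also spans Tnfsf13, so reads could be split between these genes and the level is uncertain. Tnfsf13 itself, the gene of the ligand APRIL, was lower too, with 13.9 ± 7.51 normalized counts in HF (n = 4, SD) and 217 ± 10.8 in the LF-labelled libraries (n = 3, SD), a log2 difference of -4.00 ± 0.46 (SE, limma adjusted p = 0.000173).

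Among the receptor genes, the TNF receptors went opposite ways. Tnfrsf1a encodes TNFR1, which carries a death domain and is found on most cells. It stood at 10867, 10219, 12643 and 11413 normalized counts in HF replicates 1 to 4, against 4340, 4091 and 4447 in the LF-labelled libraries. All HF libraries were above all of the other group, with a 2.63-fold ratio of means and a log2 difference of 1.39 ± 0.08 (SE, limma adjusted p = 3.98e-06). With quantile normalization the log2 difference was 0.60.

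Tnfrsf1b encodes TNFR2, which lacks a death domain and is found mainly on leukocytes and endothelium. It stood at 11586, 16578, 11584 and 12420 normalized counts in HF replicates 1 to 4 and at 23357, 23001 and 23706 in the LF-labelled libraries. HF replicate 2 was the highest in HF and remained below the other group. The log2 difference was -0.86 ± 0.12 (SE, limma adjusted p = 0.000583), and it was -1.81 with quantile normalization.

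The ratio of both within a library is unchanged by any single scaling factor per library, which quantile normalization is not. Per kilobase of exon, with exon lengths of 2591 and 3818 bases from GENCODE M21, the ratio of Tnfrsf1a to Tnfrsf1b was 1.38, 0.908, 1.61 and 1.35 in HF replicates 1 to 4 and 0.274, 0.262 and 0.276 in the LF-labelled libraries. Tnfrsf1a was the higher of the pair in every HF library except replicate 2, and the lower in every LF-labelled library. The mean ratio was 1.31 ± 0.293 in HF (n = 4, SD) and 0.271 ± 0.00763 in the LF-labelled libraries (n = 3, SD), which is 4.85-fold higher in HF. A two-sided exact permutation test gave p = 0.0571, the smallest that 4 against 3 libraries allow.

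**Figure D2:**
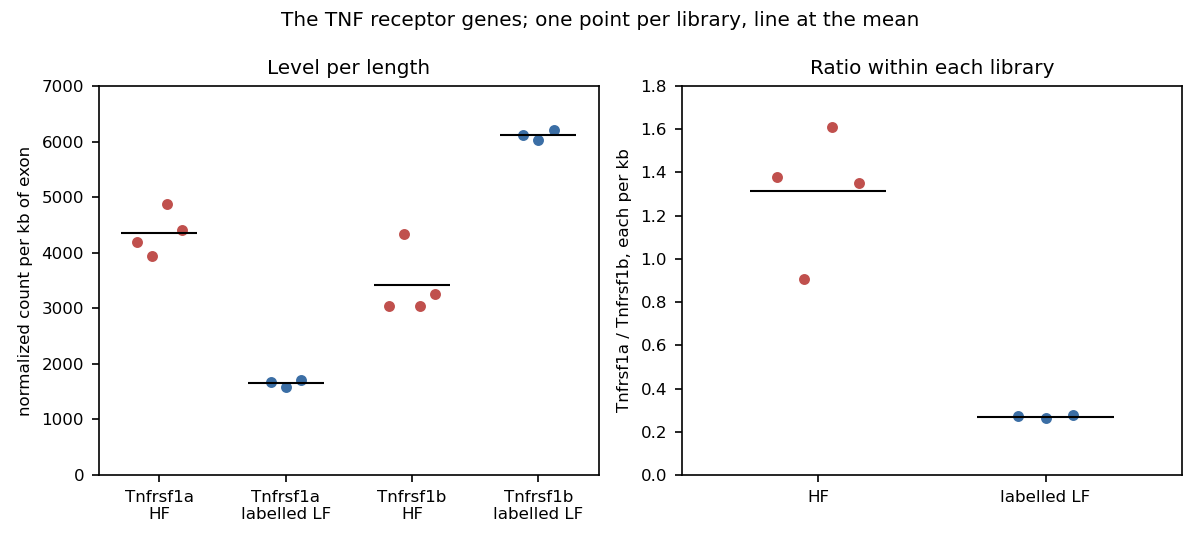
Left, normalized count per kilobase of exon of Tnfrsf1a and Tnfrsf1b; right, their ratio within each library. Points are libraries, HF left of the LF-labelled libraries, and lines are means; the ratio is 0.908 to 1.61 in HF and 0.262 to 0.276 in the LF-labelled libraries.

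Tnfrsf11a encodes RANK, the receptor of RANKL that drives osteoclast formation from myeloid precursors. It had 0, 0, 1.12 and 29.5 normalized counts in HF replicates 1 to 4, against 646, 610 and 728 in the LF-labelled libraries. It was at or near 0 in 3 of the 4 HF libraries, and 23 of its 24 HF reads came from replicate 4. The log2 difference was -7.86 ± 1.17 (SE, limma adjusted p = 0.000714), and -9.01 without HF replicate 4. It was smaller in size on recovered reads (-6.45 with edgeR, -6.42 with DESeq2) and with a pseudocount of 5 (-6.28). The mean was 7.66 ± 14.6 normalized counts in HF (n = 4, SD) and 661 ± 60.7 in the LF-labelled libraries (n = 3, SD), 86.4-fold higher in the LF-labelled libraries. In HF replicate 4 the genes for dendritic cells and antigen presentation summed to 33317, against 32652 in HF replicate 3 and at most 16088 in HF replicates 1 and 2, and their part in the Tnfrsf11a reads was not tested. RANKL's gene Tnfsf11 had 0 reads in HF and 4 in the LF-labelled libraries.

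Tnfrsf21 encodes the death domain receptor DR6. Its normalized counts were 2615, 2479, 1906 and 1877 in HF replicates 1 to 4 and 6235, 5560 and 5998 in the LF-labelled libraries. The groups were clearly apart, and the log2 difference was -1.43 ± 0.14 (SE, limma adjusted p = 5.95e-05), and -2.03 with quantile normalization.

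Levels were ordered per kilobase of exon. In HF the order was Tnfrsf1a (4356 normalized counts per kilobase), Tnfrsf1b (3416), Ltb (2708), Tnfsf14 (2397), Tnf (681), Tnfrsf21 (540), Tnfsf13b (143), Tnfsf12 (6.33), Tnfsf10 (3.96) and Tnfrsf11a (1.28). Neighbours whose libraries overlapped were Tnfrsf1a and Tnfrsf1b, Tnf and Tnfrsf21, and the last 3 genes. In the LF-labelled libraries the order was Tnfrsf1b (6117), Tnfrsf1a (1657), Tnfrsf21 (1443), Ltb (242), Tnfrsf11a (110), Tnf (89.5), Tnfsf14 (75.6), Tnfsf12 (52.0), Tnfsf10 (38.3) and Tnfsf13b (25.0), and only Tnf and Tnfsf14 overlapped as neighbours. Ltb and Tnfsf14 thus stood next to the TNF receptors in HF, while receptors held the first 3 places in the LF-labelled libraries.

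The genes whose pattern came nearest to that of Tnfsf14 over the 7 libraries were Tnfrsf23, Osgin1 and C5ar2, with root mean square differences of 0.12, 0.132 and 0.153 on the centred log2 scale. Nearest to Tnfrsf11a were Arsi, Endod1 and Prmt6, at 0.39, 0.616 and 0.748. They were the nearest of 9464 genes with a mean of 50 or more, leaving out members, predicted genes, clones and pseudogenes.

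Of 17 family ligands in the table, 13 were tested, with 4 higher and 3 lower in HF, and 6 did not pass. The shares over all tested genes, to set beside these counts and those of the receptors below, were 26.2% higher and 28.7% lower. With equal library totals the calls were 4 higher and 5 lower. Outside the members, only Tnfsf13 passed, and 4 were too low to test. Tnfsf15, the ligand TL1A, averaged 6.75 ± 13.5 normalized counts in HF (n = 4, SD), all of it from replicate 2, and 25.5 ± 3.47 in the LF-labelled libraries (n = 3, SD), and did not pass (limma adjusted p = 0.0505). It passed as lower in 3 of 16 alternatives, among them without HF replicate 2 (log2 difference -4.72, limma adjusted p = 0.000715, with 0.000715 to 0.457 across the alternatives). Fasl, the ligand of Fas, averaged 8.27 in HF and 35.7 in the LF-labelled libraries and missed the threshold (limma adjusted p = 0.0617). It passed as lower in 3 of 16 alternatives. These were without HF replicate 3 (limma adjusted p = 0.01), with equal library totals (0.0307) and with a pseudocount of 5 (0.0471). All alternatives spanned 0.01 to 0.2.

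Of 28 family receptors, 20 were tested, with 7 higher, 7 lower and 6 not past the threshold. Tnfrsf23, a mouse decoy receptor for TRAIL, averaged 1223 ± 112 normalized counts in HF (n = 4, SD) and 37.5 ± 9.37 in the LF-labelled libraries (n = 3, SD), a log2 difference of 5.01 ± 0.22 (SE, limma adjusted p = 7.36e-07). Fas, the death receptor, averaged 4117 ± 447 in HF (n = 4, SD) and 651 ± 66.3 in the LF-labelled libraries (n = 3, SD), a log2 difference of 2.66 (limma adjusted p = 8.48e-07). Relt, a leukocyte receptor of the family, averaged 6143 in HF and 1777 in the LF-labelled libraries (log2 difference 1.79, limma adjusted p = 1.59e-06). The others that were higher outside the members, chosen after their values were seen, were Tnfrsf18, Tnfrsf26 and Ltbr.

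The receptors for products of the 4 raised ligand genes, picked after values were seen, did not move as a block. For LIGHT and lymphotoxin, Ltbr was higher in HF at 2074 against 1187 normalized counts (log2 difference 0.79, limma adjusted p = 0.00116), but not with equal library totals (adjusted p = 0.0976, with 1.21e-07 to 0.0976 across the alternatives). The HVEM gene Tnfrsf14 averaged 199 in HF and 184 in the LF-labelled libraries and missed the threshold (limma adjusted p = 0.681, with 0.0315 to 0.911 across the alternatives). It was called higher with quantile normalization (log2 difference 0.66, adjusted p = 0.0315) and its direction turned with equal library totals (-0.41). For BAFF, the TACI gene Tnfrsf13b was lower at 176 against 1631 (log2 difference -3.38, limma adjusted p = 0.000259). The BAFF receptor gene Tnfrsf13c averaged 51.7 in HF and 33.1 in the LF-labelled libraries and missed the threshold (limma adjusted p = 0.573), and its direction too turned with equal library totals. The other receptors that were lower outside the members were Cd40 (85.9 in HF against 929), Tnfrsf8 (34.0 against 201) and the Fn14 gene Tnfrsf12a (62.0 against 133). The calls of Tnfrsf8 and Tnfrsf12a were each lost without LF6 and without LF8, and that of Tnfrsf12a also without LF7. Over these, limma adjusted p was 0.0521 to 0.0912. The call of Tnfrsf12a was also lost with quantile normalization (log2 difference -0.75, limma adjusted p = 0.128). Over all alternatives the largest adjusted p was 0.0576 for Tnfrsf8 and 0.128 for Tnfrsf12a.

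**Figure D3:**
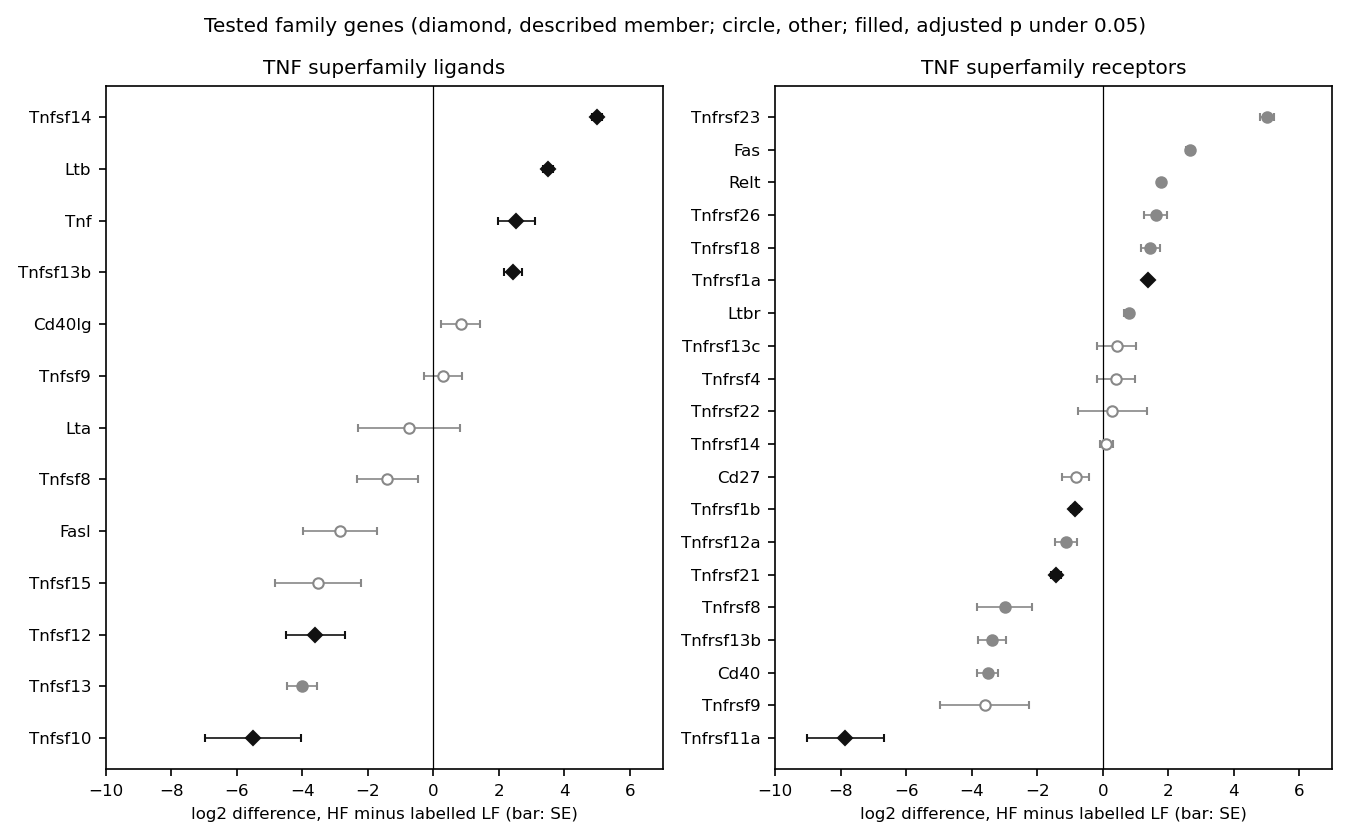
Log2 difference, HF minus the LF-labelled libraries, of the 13 tested ligand and 20 tested receptor genes of the family, with bars for the standard error. Diamonds are the 10 described genes and filled symbols passed an adjusted p of 0.05; Tnfsf14 (4.99) and Tnfrsf23 (5.01) lie highest and Tnfrsf11a (-7.86) lowest.

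Behind the receptors, adaptors and the ubiquitin machinery that switches NF-kB on and off held genes of both directions. Of 27 such genes, 8 were higher and 11 lower in HF, with a median log2 difference of -0.25. Over all tested genes, 26.2% were higher and 28.7% lower, with a median of -0.16, and the lists that follow have the same background. Equal library totals turned this into 3 higher and 14 lower, and leaving out LF6, LF7 or LF8 left 5 and 7, 7 and 7, or 7 and 6. The lowest p was that of Ikbkb, a catalytic subunit of the IKK complex, at 2751 ± 273 normalized counts in HF (n = 4, SD) and 8712 ± 121 in the LF-labelled libraries (n = 3, SD), a log2 difference of -1.67 ± 0.09 (SE, limma adjusted p = 2.09e-06) that was -2.32 with quantile normalization. Birc3, the cIAP2 ubiquitin ligase recruited by TRAF2, was higher by 1.05 on the log2 scale (limma adjusted p = 3.58e-05), and by 0.40 with quantile normalization. Map3k14, the NF-kB-inducing kinase through which BAFF and lymphotoxin receptors signal, was lower (log2 difference -1.05, limma adjusted p = 0.000123). Tnfaip3 averaged 2552 in HF and 1310 in the LF-labelled libraries and was called higher (limma adjusted p = 0.0415, with 0.00717 to 0.364 across the alternatives). That call was lost in 9 of 17 alternatives. These were no filter, equal library totals, quantile normalization, no trend, edgeR with TMM, and leaving out HF replicate 1, HF replicate 3, LF6 or LF8. Traf1 averaged 345 in HF and 879 in the LF-labelled libraries and was called lower (limma adjusted p = 0.0354, with 0.0013 to 0.121 across the alternatives). Its call was lost in 11 of 17 alternatives. These were no filter, quantile normalization, no trend, edgeR with either scaling, and leaving out any 1 library other than HF replicate 2.

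In the death branch, 2 of 9 genes were higher, 3 lower and 4 not past the threshold, with a median of 0.07. With equal library totals the counts were 1 and 4, and without LF6, LF7 or HF replicate 4 they were 1 and 3. Bid, which links caspase 8 to mitochondria, averaged 4650 normalized counts in HF and 1433 in the LF-labelled libraries (log2 difference 1.70, limma adjusted p = 1.55e-06). Casp8, which starts the caspase cascade, averaged 616 in HF and 2198 in the LF-labelled libraries (log2 difference -1.87, limma adjusted p = 0.000171), and Ripk3, a kinase of necroptosis, 125 in HF and 573 in the LF-labelled libraries (log2 difference -2.31, limma adjusted p = 0.00138). Mlkl, its substrate and chosen with its values known, had counts of 0, 7.71, 0 and 34.6 in HF replicates 1 to 4, against 384, 358 and 377 in the LF-labelled libraries (log2 difference -6.48, limma adjusted p = 0.00288). On recovered reads edgeR gave -5.15.

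Of 8 tested genes for the release of membrane TNF, 2 were higher and 4 lower, with a median of -0.39. Without LF6, LF7 or LF8 they were 2 and 2 of 7 tested, since Rhbdf1 then fell below the filter and the call of Sppl2a was lost. With equal library totals they were 1 and 4. Rhbdf2, whose product iRhom2 carries the TNF sheddase to the cell surface in immune cells, averaged 3673 ± 372 normalized counts in HF (n = 4, SD) and 1324 ± 174 in the LF-labelled libraries (n = 3, SD; log2 difference 1.47, limma adjusted p = 2.93e-05). Its relative Rhbdf1 had 0 reads in HF and 102 in the LF-labelled libraries, which makes it at least 27.0-fold lower in HF, taking 3 reads in all HF libraries together as the floor. Furin, which activates the sheddase, was higher by 0.83 (limma adjusted p = 0.00115), a call lost with equal library totals (adjusted p = 0.0852, the highest across the alternatives). The sheddase gene Adam17 itself, picked after its values were seen, averaged 2474 in HF and 4304 in the LF-labelled libraries and was lower (log2 difference -0.82, limma adjusted p = 0.00292). Sppl2a, a protease that cuts the TNF stub left in the membrane, averaged 4143 in HF and 5739 in the LF-labelled libraries. It was called lower (log2 difference -0.49, and -1.20 with quantile normalization, limma adjusted p = 0.0227). That call was lost without LF6, LF7 or LF8 (limma adjusted p of 0.0536 to 0.0803) and with no trend (limma adjusted p = 0.068). Across the alternatives the adjusted p was 3.19e-05 to 0.0803.

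**Figure D4:**
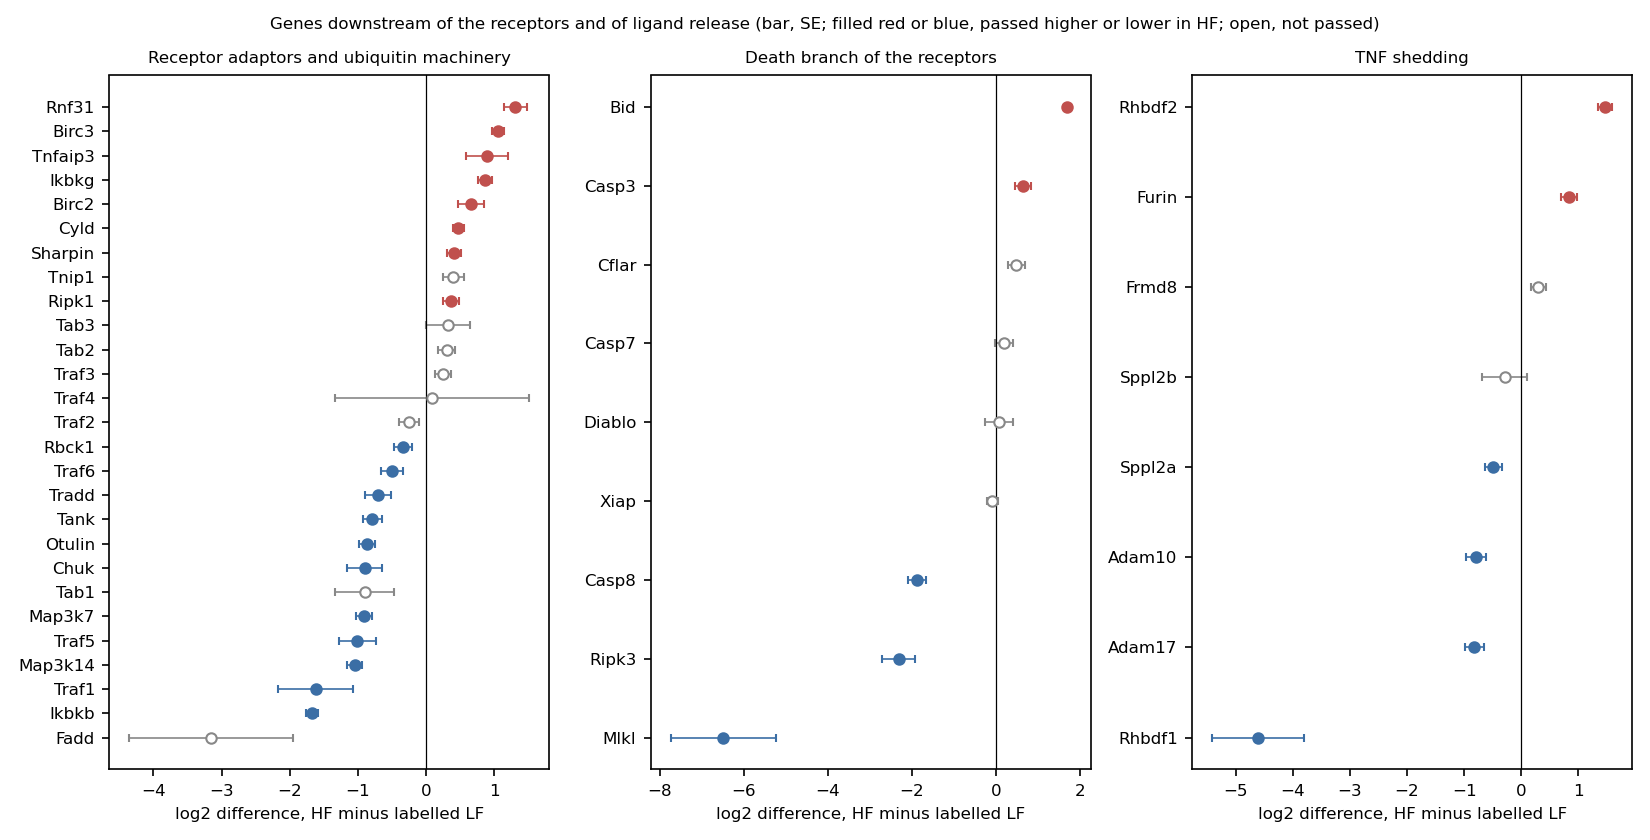
Log2 difference, HF minus the LF-labelled libraries, with standard errors, of tested adaptor and ubiquitin genes (27), death branch genes (9) and TNF release genes (8). Filled red and blue points passed as higher and lower in HF and open points did not; each panel holds both directions, with Mlkl (-6.48) the lowest point.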

How the data were processed

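Normalized RNA-seq counts of 4 HF libraries and 3 LF-labelled libraries were analysed. The tools listed in the submitters' processing notes, without their roles, are featureCounts 1.6.3, STAR 2.6.1b and DESeq2 1.20.0. The sources used here give no genome build, annotation or strand setting. Per the name of the deposited table it holds counts after normalization (unit: signal). In each library every value (100%, tolerance 0.01) was a whole multiple of a single step, taken as 1 read, so reads could be recovered. The authors' deposited table also holds p-values, log2 fold changes and their statistic (a score), used only where the text says so.

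The HF columns carry the labels' numbers. The LF columns are numbered 6, 7 and 8 and the labels number those samples 1 to 3, so they carry no replicate number here (LF6 to LF8). The design text counts mice, and p-values reflect only how these libraries vary. No libraries agreed within sampling noise. The median chi-square per gene was 12.1 to 16.2 between HF libraries and 2.29 to 3.0 between LF-labelled libraries, which were closer to each other. 0 columns of libraries were left unmapped.

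Members and gene lists were chosen with earlier results of these data known. Genes with a mean of at least 10 were compared, HF against LF, by limma 3.58.1 (R 4.3.3, trended variance) on log2 of the normalized count plus 1, with Benjamini-Hochberg adjustment over all tested genes. The added pseudocount understates ratios of low values, but where HF libraries at 0 mix with higher ones the mean of log2 values can give a larger difference than the ratio of means. The 17 alternatives changed the pseudocount (0.5 or 5), the filter (none, or a mean of 50), the scaling (equal totals or quantiles), the trend, the tool (edgeR 4.0.16 with either the authors' or TMM factors, and DESeq2 1.42.0, all run on recovered reads) or left out 1 library. With the authors' scaling, edgeR on recovered reads called 7624 genes and limma 8211. The fits were tested on simulated data. Named genes are the members, per list the 3 non-members of smallest p and the most abundant non-member, and the 3 nearest patterns of the members with the largest rise and fall; other genes are marked as picked after their values were seen. Intervals and floors cover counting error only. Figures were drawn with matplotlib 3.10.9.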

Additional observations from a re-analysis of the deposited data

Results flagged for a closer look

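The 49 genes examined were the members and genes named beside them, without Lta, Tnfsf11 and the cell type markers. Of the 49, 13 had an HF library standing apart from the other 3. Its gap, as a share of the group's range, was above Dixon's critical value for 4 samples. The critical value is set so that chance flags about 1 in 20 groups, but that rate does not carry over to these genes. Where the other 3 libraries are at 0, the gap is 1 whatever the count. Tnfaip3 and Traf1 were also picked after their values were seen. The LF-labelled libraries are too few for this check.

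Among the members, Tnf stood at 2667 normalized counts in HF replicate 2, against 407 to 792 in the other HF libraries, a gap of 0.83 of the range that only just passes. Tnfrsf1b stood at 16578 in the same library, against 11584 to 12420. Tnfsf10 stood at 79.6 in HF replicate 3, against at most 3.86, and Tnfrsf11a at 29.5 in HF replicate 4, against at most 1.12.

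HF replicate 2 was also apart in Tnfaip3 (4340, against 1772 to 2101), Traf1 (792, against 144 to 235) and Tnfsf15 (27.0, against 0), and it was the lowest in Relt (5753, against 6254 to 6308). HF replicate 3 was the highest in Fasl (26.9, against at most 3.86) and Furin (2562, against 2007 to 2087). HF replicate 4 was the highest in Arsi (24.4, against 0), Endod1 (25.7, against at most 1.29) and Prmt6 (12.8, against 0). The last 3 were selected for likeness to Tnfrsf11a and share its pattern by that choice.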

How the results depend on the processing

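Of the 10 members, 9 or 10 were called in every alternative. The exceptions to 10 were a mean of at least 50, which left out Tnfsf12, and edgeR (both scalings) and DESeq2, which did not call Tnfsf10. Over 169 member values in the alternatives, 166 kept direction and call, 3 kept direction only and 0 turned. All tested genes called ranged from 7263 to 9042 across the alternatives that keep every library, and from 6432 to 8470 when 1 library was left out. Of all calls, 29.7% were in the HF-higher direction with equal library totals, compared with 47.7% in the fit as reported. Of 656 values of the 39 other genes examined, 6 turned direction, all in genes that did not pass. Tnfrsf13c (-0.08) and Tnfrsf14 (-0.41) turned with equal library totals. Tnfrsf22 (log2 difference 0.29) turned with equal totals (-0.22), quantile normalization (-0.04), without HF replicate 3 (-0.33) and without HF replicate 4 (-0.05). Its range was -0.33 to 1.27 when 1 library was left out. The ratio of Tnfrsf1a to Tnfrsf1b (HF over labelled LF) was 4.49 to 5.35 when 1 library was left out, an alternative added after seeing the data. Depth limits Tnfsf10, Tnfsf12 and Tnfrsf11a, with 74, 33 and 24 reads over the HF libraries. No paired analysis was possible because the LF columns carry the numbers 6 to 8, which match none of the numbers in the labels.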
